A study of Mus musculus with 12 samples.

Results

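DC2.4 cells that had received DNase-treated vesicles from activated T cells were compared with DC2.4 cells that had received phosphate-buffered saline (PBS). DC2.4 is an immortalised mouse dendritic cell line, labelled wild type in every sample, and dendritic cells are the immune cells that take up antigen and present it to T cells. The comparison took the 6 libraries whose titles carry the DNase and PBS names, out of 12 libraries in the series, and every gene with enough counts to be tested. DNase-treated ATEV cells (called DNase-ATEV below, 3 libraries) received 15 µg/mL of extracellular vesicles from activated mouse T cells (ATEV) that had first been incubated with Baseline-ZERO DNase, an enzyme that degrades DNA. ATEV cells (3 libraries) received the same 15 µg/mL of vesicles without the enzyme. NTEV cells (3 libraries) were given vesicles of non-activated T cells at 30 µg/mL, so their vesicle dose differed. The labels add a vesicle DNA amount of 5 µg/mL, in wording that may cover both the ATEV and the NTEV dose or the NTEV dose alone, so these groups may have been matched on DNA. PBS cells (3 libraries) received PBS and no vesicles. DNase without vesicles was not analysed here, so an effect of enzyme carried over with the vesicles and an effect of the removed DNA cannot be told apart. All 4 groups share the cell line, the wells, the overnight exposure and a reseeding on the following day. The labels say that the procedure was repeated 3 times, which may mean rounds on the same cells or separate experiments, so p-values measure the spread between these libraries only.

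Extracellular vesicles are membrane particles that carry protein, RNA and DNA from the cell that released them. In a cell that takes up DNA, the cytosolic sensor cGAS makes a cyclic dinucleotide that activates STING (Tmem173 in mouse), and STING acts through the kinase TBK1 and the factor IRF3 to switch on type I interferon genes. Interferons then switch on transcription factors through their receptors, and type I and type II interferon induce guanylate-binding proteins (GBP), immunity-related GTPases, the peptide transporter and proteasome subunits of MHC class I presentation, and galectin-3-binding protein.

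The DNase-ATEV libraries held 21.5, 19.9 and 22.9 M gene counts (M, 1e6), against 26.4, 21.8 and 23.1 M in the PBS libraries, and the 12 libraries ranged from 19.4 to 30.4 M. After a filter on low counts, 13261 of 42687 genes were tested. On the first principal component of log2 CPM (counts per 1e6 counts), which carried 34.9% of the variance, DNase-ATEV replicates 1, 2 and 3 stood at -30.4, 4.41 and 9.81, against -41.8, -28.4 and -14.6 for the PBS libraries. Replicate 1 of the DNase-ATEV group thus lay among the PBS libraries on this axis, and replicates 2 and 3 lay outside their range. The median absolute log2 difference over genes ran from 0.15 to 0.33 between a DNase-ATEV and a PBS library, from 0.15 to 0.29 between DNase-ATEV libraries and from 0.17 to 0.25 between PBS libraries. The distances between the groups therefore overlapped those within them. Among genes with a mean of at least 1 CPM in the group, 664 spread by 2-fold or more across the DNase-ATEV libraries, against 454 across the PBS libraries. Replicate 1 was the library farthest from the other two for 477 of those 664 genes (71.8%), replicate 3 for 110 and replicate 2 for 77.

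**Figure D1:**
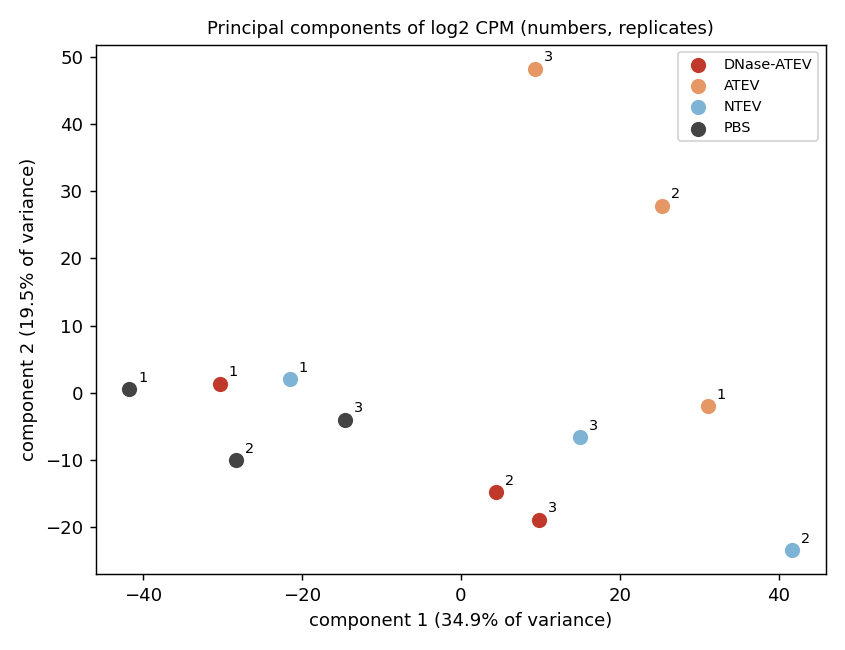
Scores of the 12 libraries on the first component (x axis) and second component (y axis) of log2 CPM over all tested genes, coloured by group and numbered by replicate. DNase-ATEV replicate 1 sits at -30.4 on the first component, within the PBS range of -41.8 to -14.6, and DNase-ATEV replicates 2 and 3 lie outside it.

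No gene differed between DNase-ATEV and PBS cells at an adjusted p under 0.05 (0 of 13261 genes, 0%; edgeR quasi-likelihood test, Benjamini-Hochberg adjustment), and the smallest adjusted p was 0.0612. Nearest to the threshold, at that value, were Lgals3bp, Gbp3 and Itgal, which lay higher in DNase-ATEV cells, and Cd24a, which lay lower. Without adjustment, 791 genes had a p under 0.05 (5.96%), of which 550 lay higher in DNase-ATEV cells (4.15%) and 241 lay lower (1.82%). The limma-voom test also called 0 genes, and DESeq2 called 38, of which 23 were higher in DNase-ATEV cells. Single libraries bore on the count: without DNase-ATEV replicate 1, 8 genes were called, and without PBS replicate 1, 2. With the replicate number as a block, the count was 1 over 12 libraries and 38 over the 6 compared. The labels do not say what a number marks. The 3 DNase-ATEV libraries all lay above the 3 PBS libraries for 1020 genes (7.69%) and all below them for 753 (5.68%), 13.4% in all. With scaling by library totals alone the same counts were 1251 above and 535 below, so the split between directions depended on the scaling.

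The intervals bound what the comparison could have missed. For 10422 of the 13261 genes (78.6%) the whole 95% interval of the log2 fold change lay within 1 of 0, that is within a 2-fold change in either direction. The share was 87.1% among the 11733 genes with a mean of at least 1 CPM. The median interval reached 0.41 to either side of its estimate. In contrast, the interval lay wholly above a 2-fold increase for 9 genes, which included Gbp3, Acsbg1, Tent5c, Spsb1 and Cxcr4, and wholly below a 2-fold decrease for 5, which included Cd24a, Maf and Cyp4x1. These intervals are unadjusted, one per gene, and none of these genes passed the adjusted threshold.

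**Figure D2:**
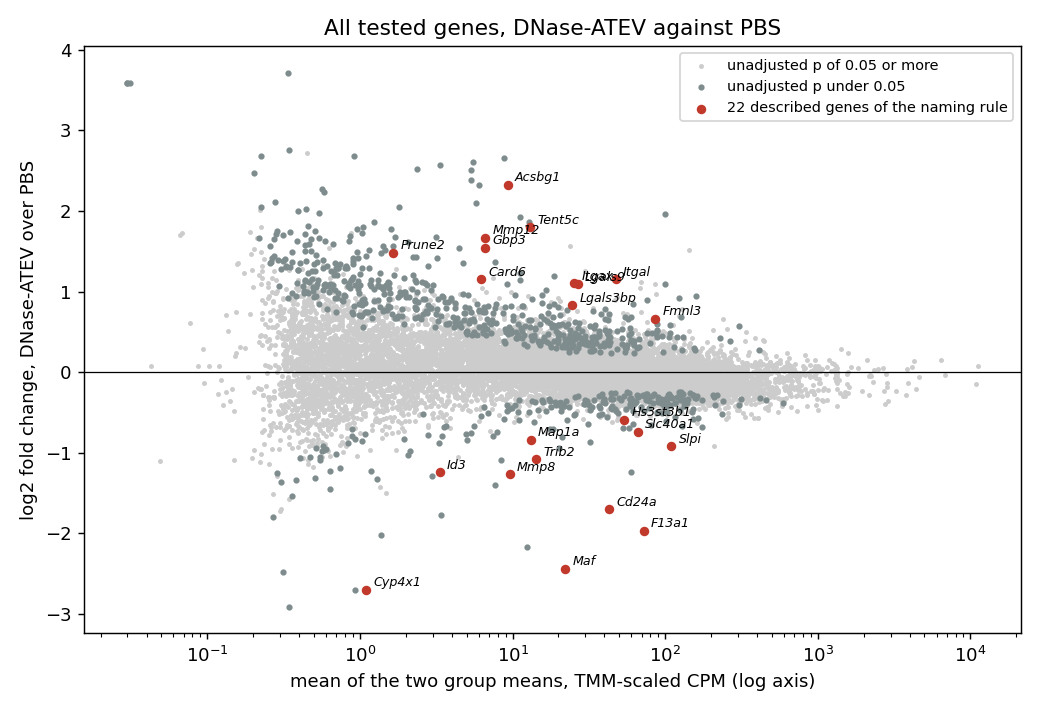
Log2 fold change of DNase-ATEV over PBS (y axis) against mean level in TMM-scaled CPM (x axis, log scale) for every tested gene, with the 22 described genes of the naming rule in red. Genes with an unadjusted p under 0.05 (darker points) number 791, and the named genes reach from -2.70 for Cyp4x1 to 2.32 for Acsbg1.

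Of the genes with no overlap between the groups and at least 1 CPM in the higher group, the 12 with the smallest p in each direction were taken, and 22 of the 24 are described next. They were chosen on this contrast, so their values are given as a description. Levels are CPM scaled by TMM (trimmed mean of M-values), in replicate order 1, 2 and 3.

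The higher genes included the galectins' partners and relatives. Lgals3bp (ENSMUSG00000033880), which encodes the secreted galectin-3-binding protein, had 31.2, 33.1 and 29.9 CPM in DNase-ATEV cells, against 17.4, 17.1 and 18.5 CPM in PBS cells. Its log2 fold change was 0.83 ± 0.11 (SE), with a 95% interval of 0.59 to 1.08 and an adjusted p of 0.0612. The groups were well apart, and replicate 1 of the DNase-ATEV group stood with the other two. Lgals9, encoding galectin-9, a sugar-binding lectin that engages receptors on T cells, had 28.9, 43.5 and 36.8 CPM in DNase-ATEV cells, against 16.3, 12.96 and 21.98 CPM in PBS cells, a log2 fold change of 1.09 ± 0.19 (SE) at an adjusted p of 0.0994. Here the lowest DNase-ATEV library still exceeded the highest PBS library.

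Adhesion and cytoskeleton genes formed a second set. Itgal (ENSMUSG00000030830), the alpha chain of the leukocyte integrin LFA-1, had 45.1, 75.2 and 75.4 CPM in DNase-ATEV cells, against 31.4, 29.9 and 26.9 CPM in PBS cells, a log2 fold change of 1.15 ± 0.17 (SE), with a 95% interval of 0.78 to 1.52 and an adjusted p of 0.0612. Itgax, the integrin chain known as CD11c that marks dendritic cells, had 31.8, 31.0 and 40.9 CPM in DNase-ATEV cells, against 12.7, 20.3 and 15.3 CPM in PBS cells, a log2 fold change of 1.10 ± 0.25 (SE) at an adjusted p of 0.399. For Itgal replicate 1 was the lowest of the DNase-ATEV libraries, and for Itgax it was level with replicate 2. Fmnl3, a formin that assembles actin filaments, had 87.6, 121 and 108 CPM in DNase-ATEV cells, against 70.7, 66.2 and 63.4 CPM in PBS cells, a log2 fold change of 0.66 ± 0.13 (SE) at an adjusted p of 0.190.

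Gbp3 (ENSMUSG00000028268), a guanylate-binding protein of the interferon response, had 11.6, 9.09 and 8.72 CPM in DNase-ATEV cells, against 4.35, 3.29 and 2.41 CPM in PBS cells, a log2 fold change of 1.54 ± 0.22 (SE), with a 95% interval of 1.06 to 2.03 and an adjusted p of 0.0612. The lowest DNase-ATEV library held 8.72 CPM and the highest PBS library 4.35 CPM. Acsbg1, an acyl-CoA synthetase that activates long-chain fatty acids, had 7.94, 15.0 and 23.6 CPM in DNase-ATEV cells, against 3.20, 3.05 and 3.06 CPM in PBS cells. Its log2 fold change was 2.32 ± 0.37 (SE), with a 95% interval of 1.52 to 3.12 and an adjusted p of 0.0710, with PBS libraries nearly equal and DNase-ATEV libraries spread widely. Card6, a protein with a caspase recruitment domain, had 7.03, 9.47 and 9.14 CPM in DNase-ATEV cells, against 3.60, 4.13 and 3.84 CPM in PBS cells, a log2 fold change of 1.15 ± 0.19 (SE) at an adjusted p of 0.0710. Tent5c, a poly(A) polymerase that stabilises mRNAs of secreted proteins, had 19.5, 24.2 and 16.9 CPM in DNase-ATEV cells, against 7.71, 4.51 and 5.21 CPM in PBS cells, a log2 fold change of 1.79 ± 0.32 (SE) at an adjusted p of 0.111. For both genes all DNase-ATEV libraries exceeded all PBS libraries. Mmp12, the macrophage elastase, had 7.75, 9.80 and 12.8 CPM in DNase-ATEV cells, against 4.27, 3.47 and 1.77 CPM in PBS cells, a log2 fold change of 1.67 ± 0.34 (SE) at an adjusted p of 0.251. Prune2 stayed under 3 CPM in every DNase-ATEV and PBS library, with a log2 fold change of 1.48 ± 0.29 (SE) at an adjusted p of 0.190.

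The lower genes included a surface protein. Cd24a (ENSMUSG00000047139), a small glycosylated surface protein found on some dendritic cell subsets, had 24.4, 17.1 and 18.8 CPM in DNase-ATEV cells, against 46.5, 71.4 and 78.5 CPM in PBS cells. Its log2 fold change was -1.70 ± 0.26 (SE), with a 95% interval of -2.27 to -1.14 and an adjusted p of 0.0612, and the highest DNase-ATEV library lay far below the lowest PBS library. DNase-ATEV replicate 1 was the nearest to the PBS libraries.

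Transcriptional regulators and signalling genes came next. Maf, a transcription factor of macrophages and T cells, had 9.20, 7.67 and 3.88 CPM in DNase-ATEV cells, against 28.4, 20.0 and 63.8 CPM in PBS cells, a log2 fold change of -2.44 ± 0.42 (SE), with a 95% interval of -3.35 to -1.53 and an adjusted p of 0.0994. The PBS libraries themselves spread widely, with replicate 3 the highest. Id3, an inhibitor of helix-loop-helix transcription factors, had 2.36, 1.56 and 2.003 CPM in DNase-ATEV cells, against 4.75, 3.29 and 5.99 CPM in PBS cells, a log2 fold change of -1.24 ± 0.27 (SE) at an adjusted p of 0.379. Trib2, a pseudokinase that promotes protein degradation, had 9.20, 9.66 and 8.47 CPM in DNase-ATEV cells, against 18.4, 18.6 and 20.9 CPM in PBS cells, a log2 fold change of -1.08 ± 0.20 (SE) at an adjusted p of 0.126. Both Id3 and Trib2 were low in every DNase-ATEV library, with tight replicates for Trib2.

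Secreted and transport proteins made up most of the rest. F13a1, the A subunit of coagulation factor XIII and a marker of some macrophages, had 18.4, 28.1 and 41.7 CPM in DNase-ATEV cells, against 83.5, 88.2 and 173 CPM in PBS cells, a log2 fold change of -1.97 ± 0.47 (SE) at an adjusted p of 0.413. Mmp8, the neutrophil collagenase, had 5.15, 6.20 and 5.51 CPM in DNase-ATEV cells, against 10.1, 16.6 and 14.0 CPM in PBS cells, a log2 fold change of -1.27 ± 0.26 (SE) at an adjusted p of 0.235. Slpi, a secreted inhibitor of leukocyte proteases, had 102, 52.6 and 73.1 CPM in DNase-ATEV cells, against 141, 140.4 and 149.9 CPM in PBS cells, a log2 fold change of -0.92 ± 0.22 (SE) at an adjusted p of 0.412. In these secreted-protein genes the PBS libraries were all higher, and for Slpi DNase-ATEV replicate 1 was the closest to them. Slc40a1, encoding ferroportin, the exporter of cellular iron, had 51.5, 48.0 and 48.9 CPM in DNase-ATEV cells, against 72.5, 80.7 and 95.1 CPM in PBS cells, a log2 fold change of -0.74 ± 0.17 (SE) at an adjusted p of 0.399. The other genes of the set were Map1a (log2 fold change -0.84), a microtubule-associated protein, Hs3st3b1 (-0.59), a heparan sulfate sulfotransferase, and Cyp4x1 (-2.70), a cytochrome P450 of under 3 CPM.

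**Figure D3:**
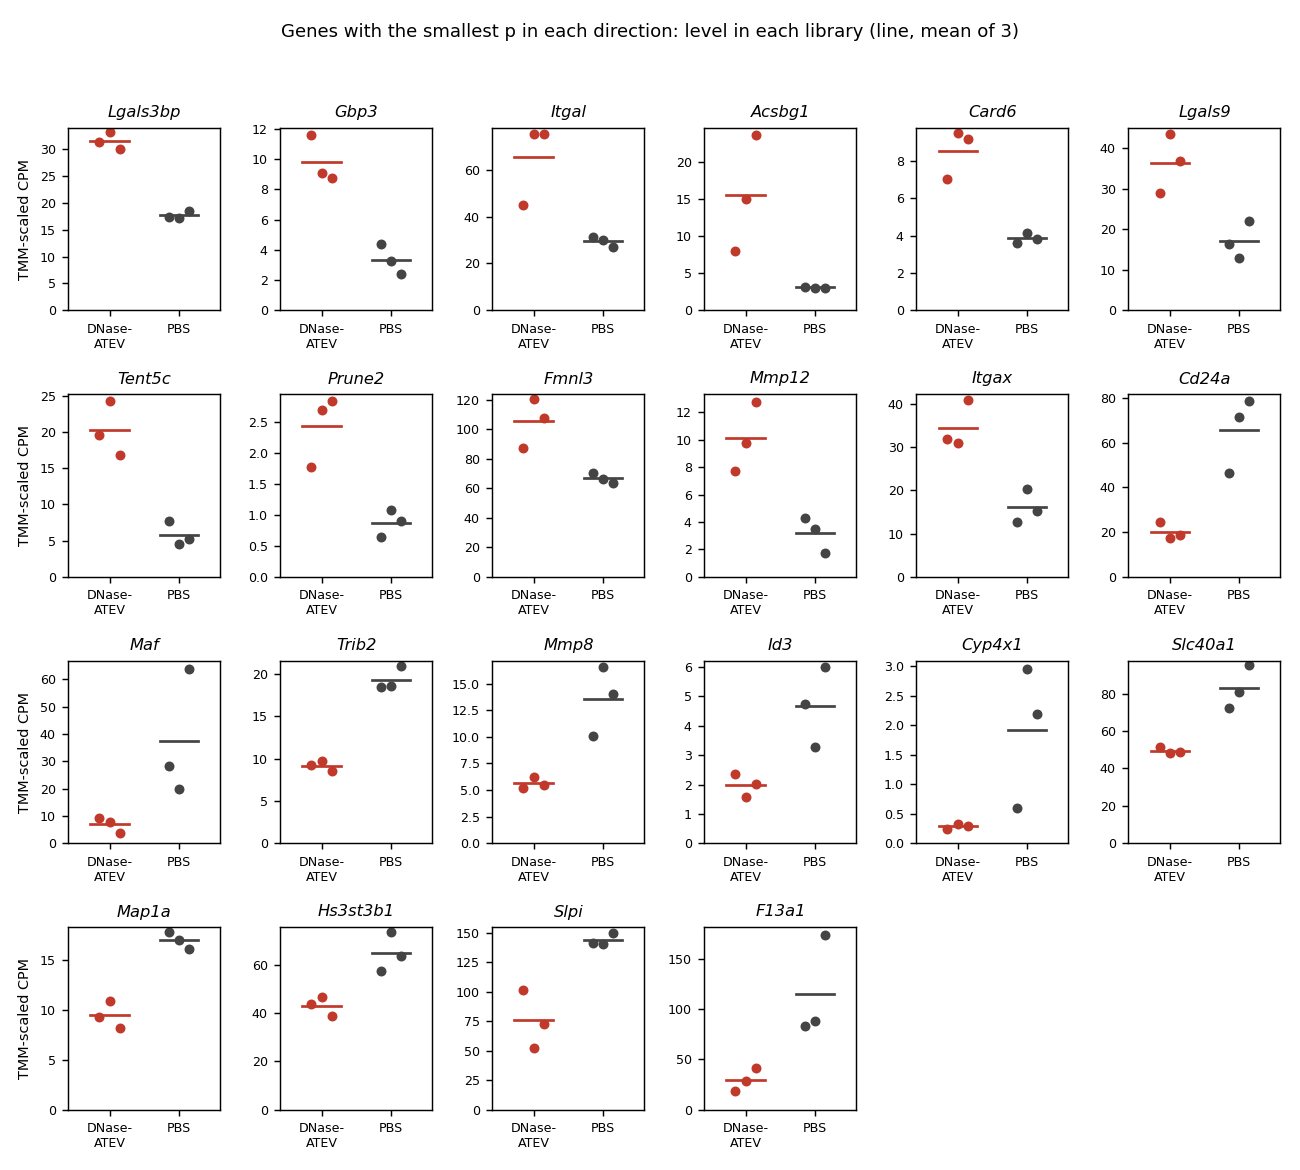
Level of each of the 22 genes in the 3 DNase-ATEV libraries (red, left) and the 3 PBS libraries (grey, right), in TMM-scaled CPM on axes from 0, with lines at the group means. The groups do not overlap in any panel, by the rule that chose the genes, and the libraries of a group spread widely for Acsbg1 in DNase-ATEV cells and for Maf in PBS cells.

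Cd24a, Itgal and Trib2 were also compared with the other vesicle groups, whose comparisons with PBS share the same 3 PBS libraries and are not independent. In ATEV and NTEV cells over PBS the log2 fold changes were -2.75 and -2.42 for Cd24a, 1.27 and 0.85 for Itgal and -1.15 and -1.55 for Trib2. All were called, so these changes were not particular to DNase-ATEV cells. Of the other described genes, Lgals3bp, Lgals9, Itgax, Tent5c, Maf, Mmp8 and F13a1 were also called in the same direction in both groups, and the rest were not. Cd24a had 24.4, 17.1 and 18.8 CPM in DNase-ATEV cells, 9.81, 11.3 and 8.06 CPM in ATEV cells and 16.2, 7.65 and 12.8 CPM in NTEV cells, so the DNase-ATEV libraries lay above those of both other vesicle groups. Itgal had 45.1, 75.2 and 75.4 CPM in DNase-ATEV cells, 72.4, 70.3 and 70.5 CPM in ATEV cells and 47.2, 53.2 and 58.3 CPM in NTEV cells. For Cd24a the direct difference of DNase-ATEV from ATEV was 1.05 ± 0.27 on the log2 scale (SE; 95% interval 0.47 to 1.62; adjusted p = 0.0816) and from NTEV 0.72 ± 0.26 (SE; 95% interval 0.15 to 1.28; adjusted p = 0.277). For Itgal, whose DNase-ATEV libraries overlapped both groups, the difference from ATEV was -0.12 ± 0.17 (SE; 95% interval -0.49 to 0.24; adjusted p = 0.767). Trib2 differed from ATEV by 0.07 ± 0.20 (SE; 95% interval -0.36 to 0.49; adjusted p = 0.904). The Itgal and Trib2 intervals against ATEV allow changes in either direction and do not show that the groups were alike.

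Interferon-inducible genes were looked at next, in lists chosen with earlier results of these data known. Of 21 tested interferon-gamma-inducible GTPases and effectors, 0 were called against PBS, 7 lay higher and 1 lower at an unadjusted p under 0.05, and the median log2 fold change was 0.22. Over all tested genes the corresponding shares were 4.15% and 1.82% with a median of 0.00. The count filter took all 4 groups, so a member could be tested through the ATEV libraries alone. A member without PBS counts could not come out lower. The counts and the median are therefore a description of the members that passed. Without overlap, 4 of the 21 were higher and 2 lower, against 7.69% and 5.68% of all tested genes. By library, the median member lay 0.31 and 0.25 above the PBS mean in DNase-ATEV replicates 1 and 3. In replicate 2 the median was 0, as in PBS replicates 1 and 3. A member without counts in that library and in the PBS libraries gives this value, so it does not measure a level. Gbp7 had 4.19, 3.55 and 3.55 CPM in DNase-ATEV cells, against 1.76, 2.02 and 1.55 CPM in PBS cells, a log2 fold change of 1.08 ± 0.25 (SE) at an adjusted p of 0.399. Gbp2 had 4.04, 1.47 and 2.34 CPM in DNase-ATEV cells, against 1.16, 0.610 and 0.646 CPM in PBS cells, a log2 fold change of 1.68 ± 0.39 (SE) at an adjusted p of 0.400. All DNase-ATEV libraries exceeded all PBS libraries for both guanylate-binding proteins, at levels of a few CPM, and Gbp2 was highest in replicate 1. Irgm2, an immunity-related GTPase, had 4.62, 5.97 and 4.72 CPM in DNase-ATEV cells, against 3.00, 2.63 and 4.27 CPM in PBS cells, a log2 fold change of 0.63 ± 0.21 (SE) at an adjusted p of 0.708. Tgtp2, a further GTPase of this family, had 4 counts in all over the DNase-ATEV libraries, 997 over the ATEV libraries and 0 over the PBS libraries. Its unadjusted p of 0.0437 against PBS (edgeR) thus rests on 4 counts, and the libraries overlapped. Nos2, the inducible nitric oxide synthase of the same list, went the other way, with 131, 109 and 126 CPM in DNase-ATEV cells, against 176, 194 and 178 CPM in PBS cells and a log2 fold change of -0.58 ± 0.17 (SE) at an adjusted p of 0.612.

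Of 48 tested type I interferon-stimulated genes, 11 lay higher and 0 lower at an unadjusted p under 0.05, with a median log2 fold change of 0.20, and 14 were higher in every DNase-ATEV library than in any PBS library. Over all tested genes 4.15% lay higher and 1.82% lower at that p, and 7.69% were higher without overlap. The same filter over all 4 groups chose the tested members of this list. Zbp1, which binds nucleic acids in the Z form and can trigger cell death, had 1.01, 0.568 and 0.584 CPM in DNase-ATEV cells, against 0.280, 0.0939 and 0.215 CPM in PBS cells, a log2 fold change of 1.81 ± 0.43 (SE) at an adjusted p of 0.412. Its levels were near 1 CPM or below, so few reads lie behind them. By library, the median member lay 0.38, 0.16 and 0.05 above the PBS mean in DNase-ATEV replicates 1, 2 and 3, against 0.09, -0.11 and 0.04 for the PBS libraries. The shift was therefore largest in replicate 1, the library nearest to PBS over all genes, and in replicate 3 it was within the PBS range. Isg15, a ubiquitin-like protein, had 96 counts over the DNase-ATEV libraries, against 80 over the PBS libraries. Ifit1, which blocks translation of foreign RNA, had 19 counts, against 44. Ifnb1, the interferon-beta gene itself, had 0 counts in all 12 libraries.

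Promoters of interferon-inducible genes carry short motifs that interferon-activated factors can bind. The RefSeq promoter windows on the GRCm38.p6 build, from 250 bases before to 50 after the start of the gene, were searched on both strands for GAAANNGAAA, an interferon-stimulated response element (ISRE) core, and TTCNNNGAA, a gamma-activated site (GAS). An ISRE-type match was present in 1131 of 32851 windows (3.44%) and a GAS-type match in 2726 (8.30%). The windows of the 3 guanylate-binding protein genes that lay higher in every DNase-ATEV library, and of Lgals9, are shown 5′ to 3′ on the strand of the gene, with matches in capitals. These windows were picked from the interferon-inducible genes described above, and each holds a match. They lie at chr3:142559794-142560093 (plus strand, the first of 2 Gbp3 promoters), chr3:142620413-142620712 (plus strand), chr3:142530086-142530385 (plus strand) and chr11:78984875-78985174 (minus strand).
Gbp3: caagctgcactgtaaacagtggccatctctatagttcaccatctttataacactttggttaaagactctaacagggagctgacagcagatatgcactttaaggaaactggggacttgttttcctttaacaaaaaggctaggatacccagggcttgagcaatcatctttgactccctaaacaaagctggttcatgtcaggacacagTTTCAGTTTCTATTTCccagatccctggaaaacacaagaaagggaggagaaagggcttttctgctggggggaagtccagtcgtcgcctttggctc
Gbp2: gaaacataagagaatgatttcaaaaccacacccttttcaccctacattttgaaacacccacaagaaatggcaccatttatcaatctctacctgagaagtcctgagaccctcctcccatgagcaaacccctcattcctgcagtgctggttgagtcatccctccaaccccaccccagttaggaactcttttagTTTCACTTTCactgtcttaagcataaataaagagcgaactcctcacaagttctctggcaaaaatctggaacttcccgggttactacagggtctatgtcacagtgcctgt
Gbp7: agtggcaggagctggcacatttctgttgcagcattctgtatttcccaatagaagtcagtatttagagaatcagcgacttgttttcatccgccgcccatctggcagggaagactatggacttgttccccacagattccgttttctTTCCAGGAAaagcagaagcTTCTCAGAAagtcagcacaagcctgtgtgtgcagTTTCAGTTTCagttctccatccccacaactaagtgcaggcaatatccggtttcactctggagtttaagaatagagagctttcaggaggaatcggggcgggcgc
Lgals9: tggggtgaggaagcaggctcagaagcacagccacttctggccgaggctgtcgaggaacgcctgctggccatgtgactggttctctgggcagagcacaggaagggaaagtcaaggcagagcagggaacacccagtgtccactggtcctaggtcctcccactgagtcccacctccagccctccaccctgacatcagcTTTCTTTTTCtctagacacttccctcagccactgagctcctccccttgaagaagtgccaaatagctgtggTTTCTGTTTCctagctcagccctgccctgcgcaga
The Gbp3 and Lgals9 windows held 2 ISRE-type matches each, overlapping in Gbp3, the Gbp2 window held 1, and the Gbp7 window held 1 with 2 GAS-type matches. The second Gbp3 promoter held no match to these letters, and neither did that of Lgals3bp, the gene with the smallest p. The Irgm2 and Acsbg1 windows, not printed, held 1 match of each type. A match describes the sequence and was not tested for binding.

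MHC genes gave small differences. Of 23 tested class I presentation genes, 4 lay higher and 0 lower at an unadjusted p under 0.05, against 4.15% higher and 1.82% lower over all tested genes, with a median log2 fold change of 0.17. H2-Q4, a non-classical class I gene, had 16.6, 20.2 and 27.6 CPM in DNase-ATEV cells, against 13.9, 12.1 and 12.7 CPM in PBS cells, a log2 fold change of 0.73 ± 0.24 (SE) at an adjusted p of 0.708, and reads of this family can be shared between near-identical copies. H2-K1, a classical class I heavy chain, had 477, 461 and 497 CPM in DNase-ATEV cells, against 465, 453 and 425 CPM in PBS cells, with a 95% interval of -0.15 to 0.34 for the log2 fold change. The groups overlapped for H2-K1. Of 11 tested class II genes, 2 lay higher and 0 lower, with a median of 0.23. Cd74, the invariant chain that escorts class II molecules, had 119, 162 and 188 CPM in DNase-ATEV cells, against 95.3, 118 and 78.5 CPM in PBS cells, a log2 fold change of 0.68 ± 0.22 (SE) at an adjusted p of 0.708. The 3 DNase-ATEV libraries all exceeded the PBS libraries, the lowest by little. Ciita, the master regulator of class II genes, had 2 counts over the DNase-ATEV libraries and 0 over the PBS libraries and was too low to test.

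The DNA-sensing machinery itself was expressed in both groups. Of 28 tested genes for sensing, degrading and signalling from DNA, 1 (Zbp1) lay higher and 0 lower at an unadjusted p under 0.05 (against 4.15% higher and 1.82% lower over all tested genes), and the median log2 fold change was -0.07. Cgas had 44.5, 34.8 and 28.7 CPM in DNase-ATEV cells, against 41.5, 38.7 and 44.4 CPM in PBS cells, with a 95% interval of -0.56 to 0.14 for the log2 fold change. Tmem173 had 71.8, 76.9 and 73.4 CPM in DNase-ATEV cells, against 76.1, 74.2 and 73.4 CPM in PBS cells, with an interval of -0.29 to 0.27. The sensor and its adaptor overlapped between the groups. Tbk1, the kinase downstream, had an interval of -0.36 to 0.10, and Dnase2a, the lysosomal DNase, one of -0.50 to 0.10. Samhd1, which lowers the nucleotide pool, had a log2 fold change of -0.17 ± 0.10 (SE), and Pld4, a lysosomal exonuclease of single-stranded DNA, 0.15 ± 0.17 (SE). Ifi204, an interferon-inducible DNA-binding protein, had 6.60, 3.79 and 2.88 CPM in DNase-ATEV cells, against 3.92, 2.30 and 3.06 CPM in PBS cells, and the groups overlapped. The exonuclease Trex1 and the secreted DNase Dnase1l3 had 0 counts in the libraries of both groups. With the counter and annotation not given, 0 counts do not show that a gene was silent.

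Genes of dendritic cell maturation and inflammation showed few differences at this level. Among 15 tested costimulation genes, 0 lay higher and 0 lower at an unadjusted p under 0.05, where 4.15% of all tested genes lay higher and 1.82% lower, with a median log2 fold change of 0.12. Among 23 NF-kB targets and inflammatory cytokines there was 1 lower, Nos2, and 0 higher. Tnf, the cytokine tumour necrosis factor, had 8.96, 15.2 and 12.2 CPM in DNase-ATEV cells, against 11.1, 14.1 and 27.6 CPM in PBS cells, and the groups overlapped. Among 16 chemokines and their receptors, 2 lay higher and 0 lower, while 12 had a log2 fold change below 0 and the median was -0.25. By library the median member stood at -0.05, -0.99 and -0.40 relative to the PBS mean in DNase-ATEV replicates 1, 2 and 3. The PBS libraries stood at 0.33, -0.07 and -0.10. Cxcr4, the receptor for the homing chemokine CXCL12, had 3.66, 13.3 and 9.93 CPM in DNase-ATEV cells, against 1.997, 0.892 and 2.24 CPM in PBS cells, a log2 fold change of 2.38 ± 0.56 (SE) at an adjusted p of 0.403. Replicate 1 was the nearest to the PBS libraries. Cxcl16, a membrane-bound chemokine and scavenger receptor, had 6.02, 6.96 and 5.72 CPM in DNase-ATEV cells, against 5.35, 3.24 and 3.62 CPM in PBS cells. Ccl9, a chemokine of myeloid cells, had 239, 109.7 and 87.1 CPM in DNase-ATEV cells, against 299, 256 and 267 CPM in PBS cells, with a log2 fold change of -0.92 ± 0.44 (SE) at an adjusted p of 0.824. Both chemokine genes kept the groups apart without passing the test.

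Pattern recognition and Fc receptor genes, 26 in number, had 2 higher and 2 lower at an unadjusted p under 0.05, against 4.15% higher and 1.82% lower over all tested genes. Fcgr2b, the inhibitory receptor for antibody complexes, had 101, 99.0 and 113 CPM in DNase-ATEV cells, against 68.4, 76.9 and 72.8 CPM in PBS cells, a log2 fold change of 0.52 ± 0.15 (SE) at an adjusted p of 0.584. Tlr2, a receptor for bacterial lipoproteins, had 91.3, 121 and 117 CPM in DNase-ATEV cells, against 84.9, 71.4 and 84.8 CPM in PBS cells, a log2 fold change of 0.45 ± 0.18 (SE) at an adjusted p of 0.768. Both were higher in every DNase-ATEV library. Marco, a scavenger receptor of macrophages, had 67.1, 25.5 and 13.8 CPM in DNase-ATEV cells, against 136, 50.8 and 64.6 CPM in PBS cells, a log2 fold change of -1.24 ± 0.55 (SE) at an adjusted p of 0.821, and the groups overlapped through DNase-ATEV replicate 1.

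Genes of vesicle uptake and of the lysosome lay near or a little above the PBS level. Of 21 uptake genes, 1 lay higher at an unadjusted p under 0.05, and it was Itgb5, the integrin chain of a receptor for the bridging protein MFG-E8, with 77.0, 132 and 112 CPM in DNase-ATEV cells, against 75.3, 59.5 and 77.6 CPM in PBS cells. Of 38 lysosomal and phagosomal genes, 3 lay higher and 0 lower, against 4.15% higher and 1.82% lower over all tested genes, with a median log2 fold change of 0.08. Among these were Scarb2, a lysosomal membrane protein that carries glucocerebrosidase, at 108, 138 and 130 CPM in DNase-ATEV cells, against 87.4, 85.5 and 94.8 CPM in PBS cells, and Lamp2. Lamp2, a major protein of the lysosomal membrane, had 446, 449 and 452 CPM in DNase-ATEV cells, against 357, 352 and 403 CPM in PBS cells. Both genes were separated between the groups, and 6 of the 38 lysosomal genes were higher in every DNase-ATEV library, against 7.69% of all genes.

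Lists of metabolism and growth had medians below 0, and in most of them DNase-ATEV replicates 2 and 3 carried the difference. All 35 of 35 tested cell cycle genes had a log2 fold change below 0, with a median of -0.22, and 0 had an unadjusted p under 0.05. By library the median cell cycle gene stood at 0.05, -0.33 and -0.37 relative to the PBS mean in DNase-ATEV replicates 1, 2 and 3, against 0.13, -0.01 and -0.13 in PBS replicates 1, 2 and 3. Heat shock and proteasome genes had 0.20, -0.33 and -0.34 in the DNase-ATEV libraries, against 0.15, -0.02 and -0.13 in the PBS libraries. Replicate 1 lay within the PBS range for the cell cycle list and above it for the heat shock list. In both lists the other replicates lay below the PBS range. Genes of cholesterol synthesis and uptake, 23 tested, had a median of -0.31 with 22 below 0 and 3 lower at an unadjusted p under 0.05, against 1.82% lower over all tested genes. Their median stood at -0.03, -0.29 and -0.56 in the DNase-ATEV libraries, against 0.14, 0.10 and -0.23 in the PBS libraries. Srebf2, the transcription factor that drives these genes, had 221, 218 and 192 CPM in DNase-ATEV cells, against 306, 283 and 215 CPM in PBS cells. The groups overlapped for Srebf2 through PBS replicate 3.

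Glycolysis and hypoxia genes, 35 tested, had 30 below 0, a median of -0.21 and 2 lower at an unadjusted p under 0.05, where 1.82% of all tested genes lay lower. Hk2, the hexokinase that opens glycolysis, had 142, 133 and 122 CPM in DNase-ATEV cells, against 181, 213 and 192 CPM in PBS cells, a log2 fold change of -0.56 ± 0.14 (SE) at an adjusted p of 0.451. Egln1, the oxygen-sensing prolyl hydroxylase, had 122, 98.8 and 119 CPM in DNase-ATEV cells, against 156, 163 and 138 CPM in PBS cells. For these genes all 3 replicates, replicate 1 included, were below the PBS libraries. Of 24 NRF2 oxidative stress genes, 3 lay lower and 0 higher, with a median of -0.23. Gclc, the rate-limiting enzyme of glutathione synthesis, had 99.9, 80.9 and 95.8 CPM in DNase-ATEV cells, against 124, 117 and 125 CPM in PBS cells, a log2 fold change of -0.40 ± 0.12 (SE) at an adjusted p of 0.612. Scd1, the desaturase that makes monounsaturated fatty acids, had 55.1, 51.7 and 37.9 CPM in DNase-ATEV cells, against 74.0, 89.5 and 63.3 CPM in PBS cells, a log2 fold change of -0.65 ± 0.21 (SE) at an adjusted p of 0.708. Both were lower in every DNase-ATEV library.

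The remaining lists held few genes past an unadjusted p of 0.05, which 5.96% of all tested genes passed. Respiratory chain genes (35 tested, median -0.10), ribosomal protein genes (38 tested, median 0.02) and immediate early genes (27 tested, median 0.29) had 0 in either direction. The unfolded protein response list (27 tested) had 1 higher and 1 lower. Trib3, a stress-induced pseudokinase, had 55.6, 156 and 263 CPM in DNase-ATEV cells, against 15.3, 57.9 and 48.8 CPM in PBS cells, a wide spread in both groups with overlap. Xbp1, a transcription factor of that response, had 105, 94.1 and 97.0 CPM in DNase-ATEV cells, against 119, 127 and 123 CPM in PBS cells. Of 21 p53 targets, Gadd45a lay higher, with 4.62, 5.35 and 9.81 CPM in DNase-ATEV cells, against 2.60, 2.16 and 2.03 CPM in PBS cells, and Bax lay lower, with 136, 121 and 139.5 CPM in DNase-ATEV cells, against 159.8, 155 and 159 CPM in PBS cells. Gadd45a is a growth-arrest gene and Bax a pore-forming cell death protein, and no common direction appears in this list, whose median was 0.04. Among 23 matrix genes, Mmp12 was joined by Col4a1, a basement membrane collagen with 6.16, 17.5 and 29.5 CPM in DNase-ATEV cells, against 3.68, 5.77 and 4.57 CPM in PBS cells, and by its partner Col4a2 at under 1 CPM. Among 23 genes of zinc, copper and iron, Slc40a1 was lower and the zinc importer Slc39a8 was higher, with 4.72, 4.02 and 3.92 CPM in DNase-ATEV cells, against 2.92, 2.72 and 2.15 CPM in PBS cells. The efflux and LXR list (11 tested) had a median of -0.10, with Scd1 as its 1 member past an unadjusted p of 0.05.

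**Figure D4:**
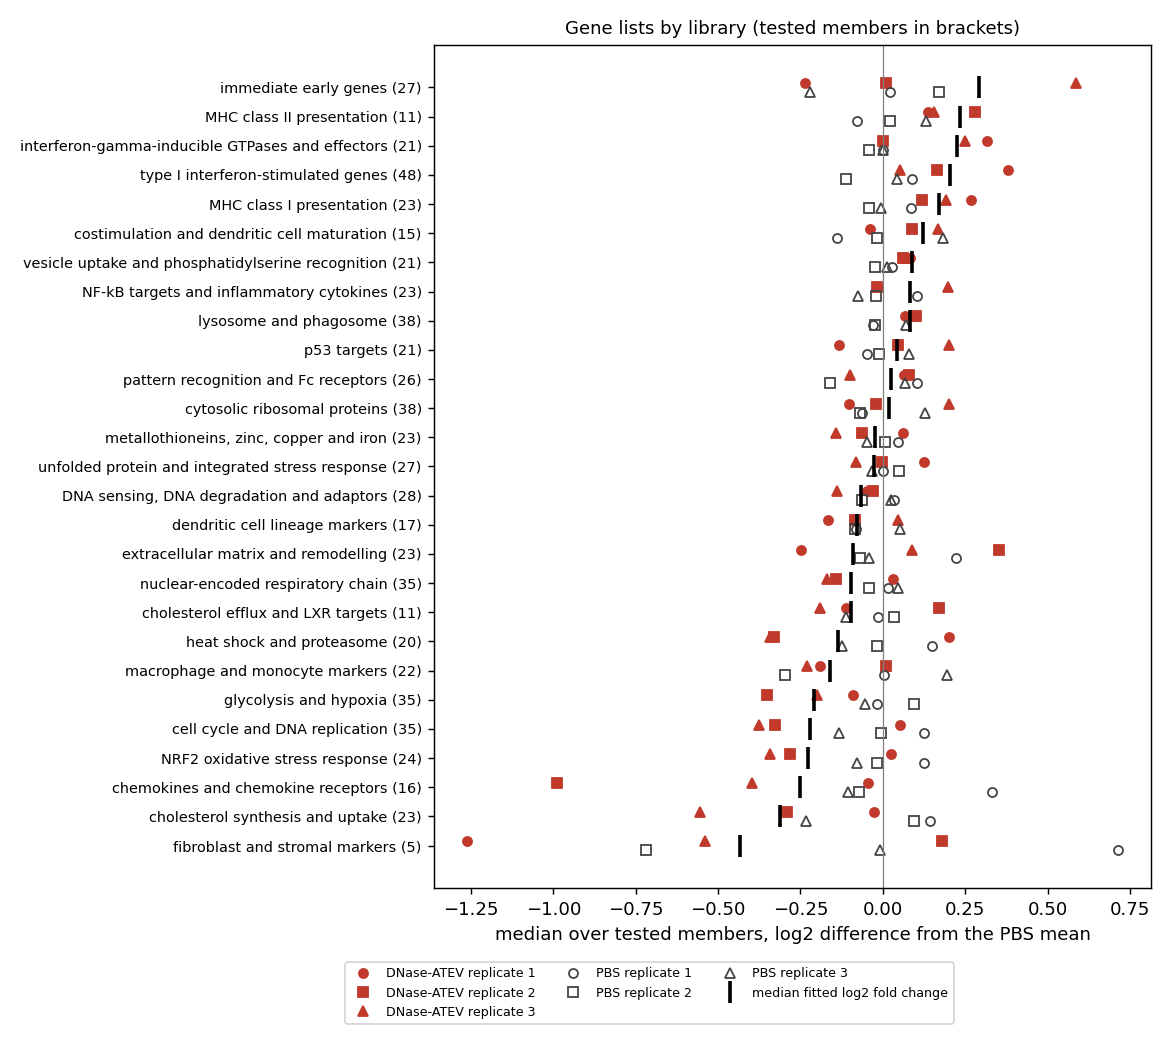
Median over the tested members of each gene list (number in brackets), as the log2 difference from the PBS mean, in each DNase-ATEV library (red) and each PBS library (open grey), with the median fitted log2 fold change as a black bar. For the cell cycle list DNase-ATEV replicate 1 stands at 0.05 and replicates 2 and 3 at -0.33 and -0.37. For the heat shock list replicate 1 stands at 0.20, above the PBS libraries, and replicates 2 and 3 at -0.33 and -0.34.

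Cell identity markers bear on what the cells were. Of the dendritic cell lineage genes, the transcription factors Irf8, Spi1 and Zbtb46 were present, with 359 Zbtb46 counts over the DNase-ATEV libraries, against 399 over the PBS libraries. Flt3, the receptor that defines classical dendritic cells in mice, had 5 counts, against 0, Xcr1 had 12, against 4, and Clec9a had 0 in both. Macrophage genes Adgre1, Csf1r, Cd68 and Lyz2 were well expressed in both groups. Of the 25 listed dendritic cell genes 17 were tested, Clec9a and Cd8a were at 0 in both groups, and 2 (Itgax and Csf2ra) lay higher and 2 (Cd24a and Btla) lower at an unadjusted p under 0.05. Without overlap, 4 were higher and 1 lower, against 7.69% and 5.68% of all tested genes, and the summed level of the list ran from 1444 to 1694 CPM in the DNase-ATEV libraries, against 1514 to 1606 CPM in the PBS libraries. Transcripts of both lineages were thus present, with Flt3, Xcr1 and Clec9a at or near 0. Of 22 tested macrophage and monocyte markers, 1 lay higher and 5 lower at an unadjusted p under 0.05, against 4.15% higher and 1.82% lower over all tested genes. The lower ones were Maf, F13a1, Mrc1, Marco and Ly6c2, and the higher one was Siglec1, a sialic acid-binding adhesion receptor, with 50.1, 85.2 and 74.8 CPM in DNase-ATEV cells, against 47.8, 36.0 and 49.0 CPM in PBS cells. Mrc1, the mannose receptor, had 0.626, 1.18 and 0.417 CPM in DNase-ATEV cells, against 1.68, 1.36 and 2.54 CPM in PBS cells. The summed level of the macrophage list ran from 3737 to 3974 CPM in the DNase-ATEV libraries, against 3841 to 4735 CPM in the PBS libraries. In bulk RNA, fewer cells of a kind and less RNA per cell cannot be told apart.

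RNA from the T cells that shed the vesicles was looked for through 29 T cell markers, of which 4 passed the count filter and 11 were at 0 in every DNase-ATEV and PBS library. Among those at 0 were Cd3e, Trbc1, Trbc2 and Gzmb, while Cd3d had 2 counts, against 0, and Cd3g had 0, against 2. The defining T cell transcripts were therefore at or near 0 in both groups. The summed level of the list, almost all of it Cd28 and Lck, ran from 58.3 to 64.1 CPM in the DNase-ATEV libraries, against 61.2 to 105 CPM in the PBS libraries. Cd28 had 47.5, 48.1 and 37.9 CPM in DNase-ATEV cells, against 50.9, 70.9 and 94.6 CPM in PBS cells, a log2 fold change of -0.70 ± 0.22 (SE) at an adjusted p of 0.701. Of 15 B cell markers 2 were tested and Ms4a1 was at 0, and of 14 fibroblast markers 5 were tested, with a median log2 fold change of -0.43 and none at an unadjusted p under 0.05.

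The direct comparison with untreated ATEV asks what the enzyme step changed at the same vesicle dose. Interferon-inducible genes were among those that fell. In all, 175 genes were lower in DNase-ATEV cells (1.32% of 13261) and 19 higher (0.143%; edgeR, adjusted p under 0.05). Leaving out 1 library moved the total of 194 (1.46%) to between 78 (without DNase-ATEV replicate 2) and 522 (without ATEV replicate 1), and it was 110 without DNase-ATEV replicate 3, 104 without ATEV replicate 2 and 103 without ATEV replicate 3. Every such fit called 74 of the genes, 72 of them lower. Of the 21 interferon-gamma-inducible genes 17 were lower and 0 higher, with a median log2 fold change of -2.56. The count filter took all 4 groups, so a gene could be tested through the ATEV libraries alone. Tgtp2, with 997 of its 1001 counts in ATEV libraries, could hardly have come out higher. The 17 of 21 and the median are therefore a description of the members that passed. Gbp2 had 4.04, 1.47 and 2.34 CPM in DNase-ATEV cells, against 38.5, 32.1 and 48.1 CPM in ATEV cells, a log2 fold change of -3.92 ± 0.34 (SE) at an adjusted p of 6.16e-05. Gbp7 had 4.19, 3.55 and 3.55 CPM in DNase-ATEV cells, against 33.7, 22.2 and 24.2 CPM in ATEV cells, a log2 fold change of -2.83 ± 0.24 (SE) at an adjusted p of 4.14e-05. The ATEV libraries stood several-fold above the DNase-ATEV libraries for both, which in turn were above the PBS libraries.

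Other lists of interferon-inducible genes also held members that were lower than in ATEV cells. Among the type I interferon-stimulated genes 18 of 48 were lower, and among class I presentation genes 17 of 23. Over all tested genes 1.32% were lower and 0.143% higher. The same filter over all 4 groups chose the tested members of these lists. Tap1, a subunit of the peptide transporter, had 35.4, 43.6 and 51.1 CPM in DNase-ATEV cells, against 169.5, 141 and 121 CPM in ATEV cells, a log2 fold change of -1.73 ± 0.21 (SE) at an adjusted p of 0.00101. Class II genes had 0 lower and 0 higher of 11, with Cd74 at 119, 162 and 188 CPM in DNase-ATEV cells, against 178, 110.4 and 108 CPM in ATEV cells. Lists of cell cycle, cholesterol synthesis, glycolysis and ribosomal protein genes had 0 called in either direction, where 1.46% of all tested genes were called. Lgals3bp stood between the ATEV and PBS groups, with 31.2, 33.1 and 29.9 CPM in DNase-ATEV cells, against 81.9, 85.1 and 74.0 CPM in ATEV cells and 17.4, 17.1 and 18.5 CPM in PBS cells, a log2 fold change of -1.35 ± 0.11 (SE) at an adjusted p of 4.14e-05 relative to ATEV. NTEV cells, at 26.2, 31.0 and 30.4 CPM, overlapped DNase-ATEV cells (log2 fold change 0.11 ± 0.11 (SE) relative to NTEV, adjusted p = 0.772). NTEV over PBS was 0.72 ± 0.11 (SE; adjusted p = 0.0105). Lgals9 had 30.6, 33.2 and 31.9 CPM in NTEV cells, which also overlapped DNase-ATEV cells.

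Further named genes also differed from ATEV, and whether they respond to interferon was not tested. Fas, the death receptor, had 1.93, 2.27 and 2.25 CPM in DNase-ATEV cells, against 9.47, 12.6 and 12.9 CPM in ATEV cells, 7.45, 15.1 and 11.4 CPM in NTEV cells and 3.16, 1.55 and 2.97 CPM in PBS cells. Its log2 fold change was -2.43 ± 0.30 (SE) at an adjusted p of 0.00104 relative to ATEV and -2.39 ± 0.30 (SE) at an adjusted p of 0.00618 relative to NTEV, while relative to PBS it was -0.26 ± 0.31 (SE; 95% interval -0.92 to 0.41). DNase-ATEV cells were thus lower in Fas than either other vesicle group and overlapped PBS cells. Slc40a1 had 51.5, 48.0 and 48.9 CPM in DNase-ATEV cells, against 95.05, 141 and 135 CPM in ATEV cells, 127, 125 and 171 CPM in NTEV cells and 72.5, 80.7 and 95.1 CPM in PBS cells. It was lower than in ATEV cells by a log2 fold change of -1.32 ± 0.17 (SE) at an adjusted p of 0.00126 and lower than in NTEV cells by -1.51 ± 0.17 (SE) at an adjusted p of 0.00319, so DNase-ATEV libraries were the lowest of the 4 groups. Mmp12 was higher than in ATEV cells (1.98, 1.67 and 3.82 CPM in the ATEV libraries), with a log2 fold change of 2.03 ± 0.35 (SE) at an adjusted p of 0.00911, and Id3 was lower, with -1.67 ± 0.27 (SE) at an adjusted p of 0.00629. Cytip, a regulator of integrin adhesion in leukocytes, had 47.0, 60.2 and 60.5 CPM in DNase-ATEV cells, against 32.8, 18.6 and 25.0 CPM in ATEV cells and 24.4, 25.5 and 23.4 CPM in NTEV cells, higher by 1.13 ± 0.19 (SE) at an adjusted p of 0.00682 and 1.20 ± 0.19 (SE) at an adjusted p of 0.0188 on the log2 scale. Its PBS level of 58.2, 62.0 and 76.8 CPM overlapped that of DNase-ATEV cells. Srd5a1, a steroid reductase, was also higher than in ATEV cells, with a log2 fold change of 1.07 ± 0.17 (SE) at an adjusted p of 0.00525. Without DNase-ATEV replicate 2 Id3 lost its call, and without ATEV replicate 2 Mmp12 did.

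**Figure D5:**
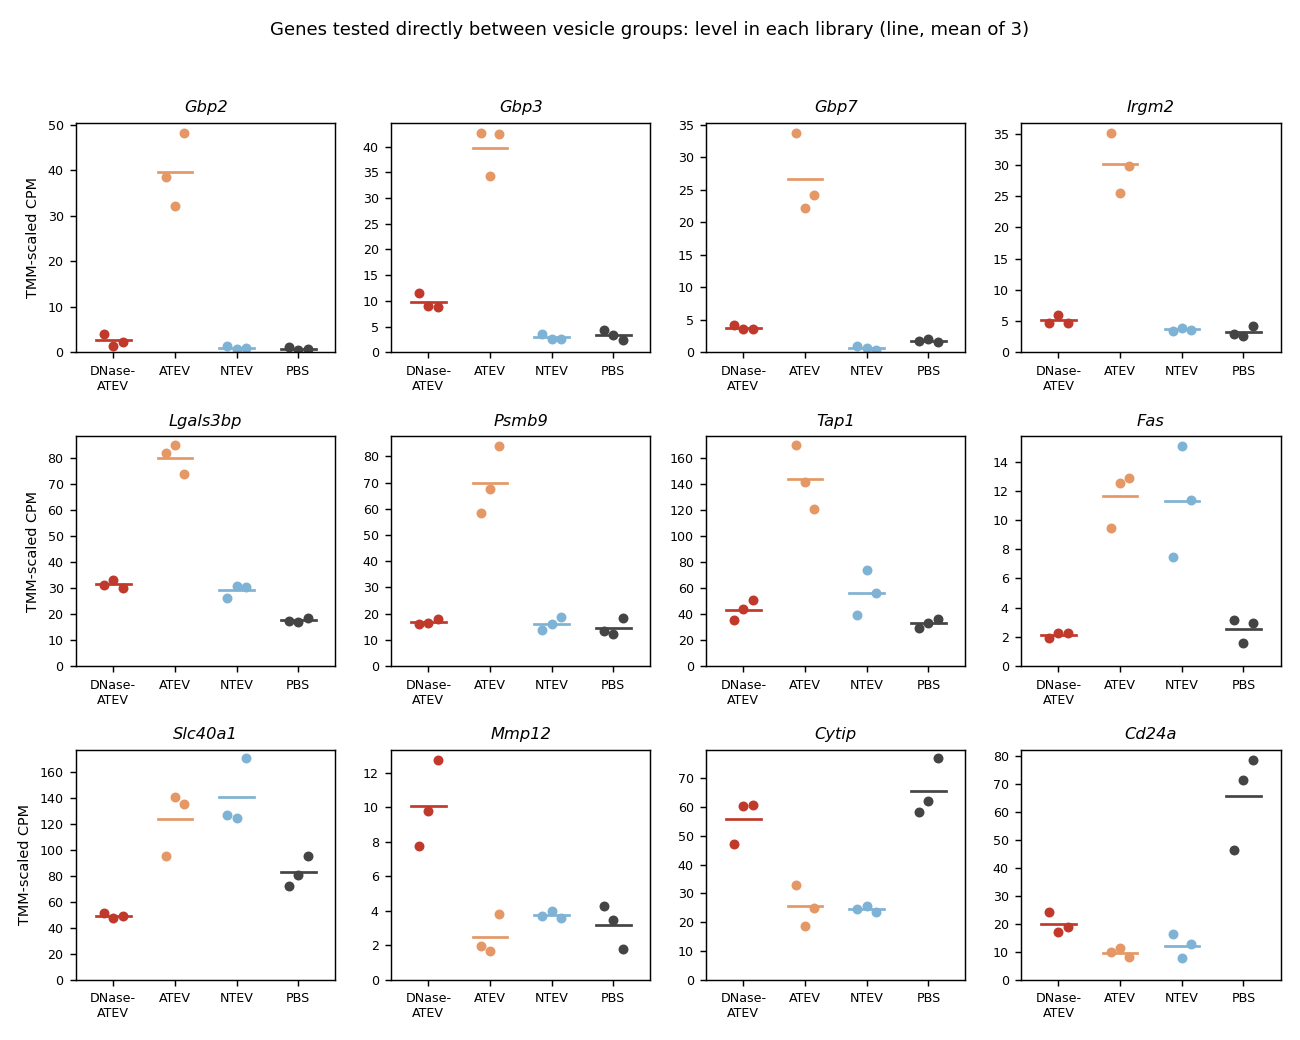
Level of 12 genes in the 3 libraries of DNase-ATEV, ATEV, NTEV and PBS cells, in TMM-scaled CPM on axes from 0, with lines at the group means. ATEV libraries stand far above the other groups for the guanylate-binding proteins, Irgm2, Psmb9 and Tap1, and DNase-ATEV libraries are the lowest of the 4 groups for Slc40a1 and the highest for Mmp12.

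Against NTEV, which was given at a higher vesicle dose and without DNase, 28 genes were higher in DNase-ATEV cells (0.211%) and 62 lower (0.468%). Dose, cell of origin and enzyme cannot be told apart in this contrast. The total of 90 (0.679%) was not stable, at 4 to 321 with 1 library left out (4 without DNase-ATEV replicate 2, 8 without DNase-ATEV replicate 3, 321 without NTEV replicate 1, 22 without NTEV replicate 2 and 16 without NTEV replicate 3), and every such fit called 4 of the genes. Same-numbered DNase-ATEV and NTEV libraries deviated together, and with the replicate number as a block the count was 609 over these 6 libraries and 41 over 12, while the 6 libraries without the block gave 2. Gbp7 had 4.19, 3.55 and 3.55 CPM in DNase-ATEV cells, against 0.897, 0.721 and 0.398 CPM in NTEV cells, a log2 fold change of 2.44 ± 0.27 (SE) at an adjusted p of 0.00319. Gbp3 had 11.6, 9.09 and 8.72 CPM in DNase-ATEV cells, against 3.62, 2.52 and 2.68 CPM in NTEV cells, a log2 fold change of 1.73 ± 0.23 (SE) at an adjusted p of 0.00734. Both guanylate-binding proteins were higher in every DNase-ATEV library than in any NTEV library. The rule that took the leading called genes against NTEV required no overlap. The DNase-ATEV libraries are also the same ones that were compared with PBS, so the comparisons are not independent. For Gbp7 the NTEV libraries were themselves below the PBS libraries, with a log2 fold change of NTEV over PBS of -1.36 ± 0.29 (SE) at an adjusted p of 0.0287. For Gbp3 the same fold change was -0.18 ± 0.23 (SE; adjusted p = 0.693). Lcn2, encoding the iron-scavenging lipocalin-2, had 1.49, 0.568 and 1.75 CPM in DNase-ATEV cells, against 26.6, 14.7 and 15.3 CPM in NTEV cells, a log2 fold change of -3.88 ± 0.38 (SE) at an adjusted p of 0.00165. Ebi3, a subunit of the cytokines IL-27 and IL-35, had 6.88, 8.43 and 9.22 CPM in DNase-ATEV cells, against 16.4, 25.0 and 18.1 CPM in NTEV cells, a log2 fold change of -1.28 ± 0.19 (SE) at an adjusted p of 0.0151. Lcn2 and Ebi3 were the lower ones here, with no overlap between the libraries, as that rule required. Tnfsf13b, the B cell survival factor BAFF, had 17.1, 19.8 and 19.9 CPM in DNase-ATEV cells, against 10.7, 6.41 and 8.85 CPM in NTEV cells, a log2 fold change of 1.13 ± 0.18 (SE) at an adjusted p of 0.0208. F13a1 was higher than in NTEV cells, whose libraries held 6.83, 2.52 and 4.87 CPM, with a log2 fold change of 2.63 ± 0.51 (SE) at an adjusted p of 0.0380 (adjusted p = 0.0564 with the block over 12 libraries), and it lay below the PBS libraries.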

How the data were processed

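RNA of the 12 DC2.4 libraries was prepared as stranded TruSeq mRNA libraries, per the labels' protocols. Demultiplexing software (bcl2fastq 2.19), an aligner (TopHat2 2.0.11 and TopHat), Cufflinks 2.1.1 and the genome mm9 are listed by the submitters' processing notes, with no counter, annotation or strand setting given in the sources used here, so overlapping and antisense genes cannot be told apart. The authors deposited raw counts, whole numbers for each gene and library, and 42250 of 42687 identifiers matched a GENCODE M21 symbol. No gene coordinates are printed, since that annotation is on another build, and the promoter windows carry RefSeq's own GRCm38.p6 coordinates.

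The fit used edgeR 4.0.16 in R 4.3.3 (filterByExpr, minimum count 10 and minimum total 15, TMM scaling, 1 mean per group over all 12 libraries, quasi-likelihood F test with 8 residual degrees of freedom, two-sided, Benjamini-Hochberg adjustment over the 13261 tested genes within a contrast). The common biological coefficient of variation was 0.183. Log2 fold changes are DNase-ATEV over the other group, and standard errors come from the F statistic. A gene was called at an adjusted p under 0.05. DESeq2 1.42.0, limma-voom (limma 3.58.1), other scalings and filters, a replicate block and leaving out each library were alternatives. A few reads lie behind a level under 1 CPM, and the p-values and intervals reflect the spread between libraries. Chi-square per degree of freedom within the DNase-ATEV and PBS groups ran from 13.6 to 55.3, so no library was a copy of another. Same-numbered DNase-ATEV and PBS libraries had deviations from their group means that correlated at 0.44, -0.06 and 0.20 for replicates 1, 2 and 3, and DNase-ATEV and ATEV libraries at -0.38, 0.08 and -0.29, so the numbers were not treated as pairs there. For NTEV they were 0.62, 0.35 and 0.13, all over 0.1, so blocked counts are given for that comparison. The log2 fold changes and adjusted p-values against NTEV are from the fit without the block unless stated. With the block over 12 libraries, Tnfsf13b and Cytip each had an adjusted p of 0.0469 (edgeR). The pairing there comes from the data, as the labels do not say what a number marks.

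The members and the 29 gene lists were chosen with earlier results of these data known, and the lists were given no test. Named genes are the 12 with the smallest p in each direction (at least 1 CPM, no overlap), up to 3 members of each list with the smallest unadjusted p if under 0.05 and its most abundant member, an interferon and DNA-sensing panel, genes called under an alternative, and the 8 leading called genes in each direction against ATEV and NTEV. A gene named for its level or as a marker was chosen after its values were seen where it falls outside this rule, and a few genes that the rule takes are not reported here. RefSeq promoters were found for 71 of 92 genes with a computed fold change in the text. The scripts were tested on simulated counts with known changes.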

Additional observations from a re-analysis of the deposited data

How the results depend on the processing

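Against PBS the count of called genes was 0, and it was 38 with DESeq2, 47 with no filter on low counts (34 higher), 1 with library totals alone (Gbp3), 1 with a floor of 1 CPM in 3 libraries (Lgals3bp) and 0 to 8 with 1 library left out. The 8 genes called without DNase-ATEV replicate 1 included Lgals3bp, Itgal, Acsbg1, Card6, Lgals9, Cd24a and Spsb1, and no gene was called in every such fit. Against ATEV the main count of 194 was 495 with DESeq2, 394 with no filter and 78 to 522 with 1 library left out. Against NTEV the main count of 90 was 391 with DESeq2, 319 with no filter, 2 with only the compared groups in the fit and 4 to 321 with 1 library left out. The cause was not tested.

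The numbers were not treated as pairs of DNase-ATEV with PBS or ATEV libraries, and whether they mark pairs there is not settled. With the replicate number as a block, the count against PBS was 1 over 12 libraries and 38 over the compared groups. Under the same block it was 261 and 22 against ATEV. Against NTEV, where same-numbered libraries deviated together, it was 41 and 609, and among the named genes F13a1, Cd74 and Zbp1 lost their call over 12 libraries. The replicate 1 and 3 libraries of the DNase-ATEV group correlated best with their own number in the PBS group and replicate 2 did not.

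Among the named genes, 1381 values against PBS kept their side of the threshold and their direction, 81 passed the threshold under an alternative and 7 changed sign. Tmem173, near 0, became 0.0598 with library totals alone, 0.00660 with no filter, 0.000309 with only the compared groups, 0.00232 without DNase-ATEV replicate 1 and 0.0155 without PBS replicate 1. With 1 library left out Tmem173 ranged from -0.0344 to 0.0155, Igtp from -0.0157 to 0.180 and Lat from -0.0471 to 0.667. Igtp became -0.0157 without DNase-ATEV replicate 3, and Lat -0.0471 without PBS replicate 1. Of the list medians, 442 stayed within the spread and 22 moved beyond it. Library totals alone shifted the median gene by 0.07 on the log2 scale. The rescaled spread of libraries was an alternative chosen after seeing the data.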

Other observations

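Further genes had a 95% interval wholly above a 2-fold increase in DNase-ATEV over PBS cells and were picked after their values were seen. Spsb1, an adaptor of a ubiquitin ligase, had 2.60, 13.5 and 11.9 CPM in DNase-ATEV cells, against 2.28, 1.60 and 2.67 CPM in PBS cells, a log2 fold change of 2.09 ± 0.47 (SE) at an adjusted p of 0.399. Olfml3, a secreted matrix protein, had 1.25, 7.67 and 3.21 CPM in DNase-ATEV cells, against 0.799, 0.376 and 0.905 CPM in PBS cells, a log2 fold change of 2.52 ± 0.68 (SE) at an adjusted p of 0.562. Tnnt2, the cardiac troponin T gene, had 0.193, 0.947 and 0.751 CPM in DNase-ATEV cells, against 0.0399, 0.0469 and 0.0431 CPM in PBS cells. Dusp13 (0.289, 0.568 and 0.960 CPM in DNase-ATEV cells, against 0.0799, 0.0469 and 0.129 CPM in PBS cells) and Pdzd2 (0.674, 1.04 and 0.876 CPM in DNase-ATEV cells, against 0.240, 0.235 and 0.172 CPM in PBS cells) were also low. None passed the adjusted threshold in the edgeR test.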
